A study of Arabidopsis thaliana with 8 samples.

Results

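The genes described here encode the small R3 MYB inhibitors of Arabidopsis thaliana, which are CAPRICE (CPC), TRIPTYCHON (TRY), ENHANCER OF TRY AND CPC 1, 2 and 3 (ETC1, ETC2, ETC3) and TRICHOMELESS 1 and 2 (TCL1, TCL2). They were chosen by locus identifier and make up 7 of the 27444 protein-coding nuclear genes of the annotation. ETC3 is listed in the annotation under its other symbol, CPL3. Each was described by the bases that called ChIP-seq regions covered on its annotated span and on the 2 kb before its start. The regions came from purified nuclei of non-hair cells of the root epidermis, in plants of the Col-0 background grown for 10 days. Chromatin immunoprecipitation had been done with antibodies to H3K4me1, H3K4me3, H3K27ac, H3K27me3, the histone variant H2A.Z and, as the reference for nucleosomes, histone H3. There was 1 library for each of these 6 targets.

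All libraries came from the same stable line, in which the biotin ligase BirA was driven by the ACT2 promoter and the nuclear tag NTF by the GLABRA2 (GL2) promoter. The promoter of a target gene of the MYB complex therefore decided which nuclei were collected. The tissue was the fully differentiated zone of the root, cut as segments of 1.25 cm without root tip or lateral roots, with 3 g for a sample. The remaining 2 of the 8 samples were input chromatin, 1 of them for H3K27me3 alone, and were not analysed here. Any difference in how the H3K27me3 library was prepared could not be told apart from the difference in its mark. With 1 library per target no difference has a replicate check, and no p-value is given for any result. A region states where a mark was called and not how much of it was there.

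Epidermal cells of the root become hair or non-hair cells, and some epidermal cells of leaves and stems become trichomes. A complex of an R2R3 MYB protein, a bHLH protein and the WD40 protein TTG1 switches on GL2 and so favours non-hair fate in the root and trichome fate in the shoot. The small R3 MYB proteins carry a lone MYB repeat and no activation domain. They bind the bHLH protein in place of the R2R3 MYB protein and so make an inactive complex. CPC is known to be transcribed in non-hair cells, from which its protein moves into the neighbouring cells that form hairs. TRY and ETC1 act with CPC in roots and on leaves, whereas ETC2, ETC3, TCL1 and TCL2 are known mainly from trichome patterning. ETC2, TCL2 and TCL1 lie next to one another in tandem on chromosome 2. Among the targets, H3K4me3 and H3K27ac are known from active genes and H3K27me3 from genes kept silent by Polycomb proteins, while H2A.Z is found on genes of either kind.

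The family relation is seen in the second coding exon, which codes for part of the MYB repeat and had 88 bases in an annotated transcript of all 7 genes. It is shown to let the sequences of the genes be compared base by base, beside chromatin that differed between them. Bases are from the RefSeq copy of the TAIR10.1 genome, written 5′ to 3′ along the gene, and capitals mark the 46 positions (52.3%) that were identical in all 7 genes.
CPC, chr2:19049946-19050033, minus strand: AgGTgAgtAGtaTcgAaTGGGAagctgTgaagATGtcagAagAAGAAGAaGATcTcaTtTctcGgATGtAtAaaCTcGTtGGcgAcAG
TRY, chr5:21583270-21583357, plus strand: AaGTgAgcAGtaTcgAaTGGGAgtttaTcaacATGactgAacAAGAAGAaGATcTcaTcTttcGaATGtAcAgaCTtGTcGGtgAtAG
ETC1, chr1:147452-147539, plus strand: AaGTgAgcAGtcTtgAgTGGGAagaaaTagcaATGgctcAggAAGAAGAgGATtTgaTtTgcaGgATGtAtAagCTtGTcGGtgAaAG
ETC3, chr4:460702-460789, plus strand: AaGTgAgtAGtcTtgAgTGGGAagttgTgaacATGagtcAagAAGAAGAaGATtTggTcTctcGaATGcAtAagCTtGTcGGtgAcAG
ETC2, chr2:12961640-12961727, minus strand: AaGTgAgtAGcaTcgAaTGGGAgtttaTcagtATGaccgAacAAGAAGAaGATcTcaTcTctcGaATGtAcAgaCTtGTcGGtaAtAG
TCL2, chr2:12965198-12965285, minus strand: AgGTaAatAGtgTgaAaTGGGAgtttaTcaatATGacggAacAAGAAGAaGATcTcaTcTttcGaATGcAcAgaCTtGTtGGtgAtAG
TCL1, chr2:12969766-12969853, minus strand: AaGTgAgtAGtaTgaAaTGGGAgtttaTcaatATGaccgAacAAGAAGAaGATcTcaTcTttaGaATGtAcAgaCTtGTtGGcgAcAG

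Over this exon the 21 pairs of genes shared between 60.2% (ETC1 with TCL2) and 92.0% (TRY with ETC2) of their bases. TRY and the tandem genes were closest to one another, at 85.2% to 92.0% in 6 pairs, and the other 15 pairs lay between 60.2% and 78.4%. TRY therefore resembled the tandem genes in this exon although it lies on chromosome 5. Reads of near-identical genes can be placed on the wrong copy, so every stretch of 32 bases was searched for exact copies in the genome. On the spans of all 7 genes 0 such stretches occurred elsewhere. In the upstream windows 3 of the 1969 stretches of TCL2 did, and 0 of the stretches of any other member. The search counted exact copies alone, so it cannot show where reads with mismatches were placed.

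**Figure D1:**
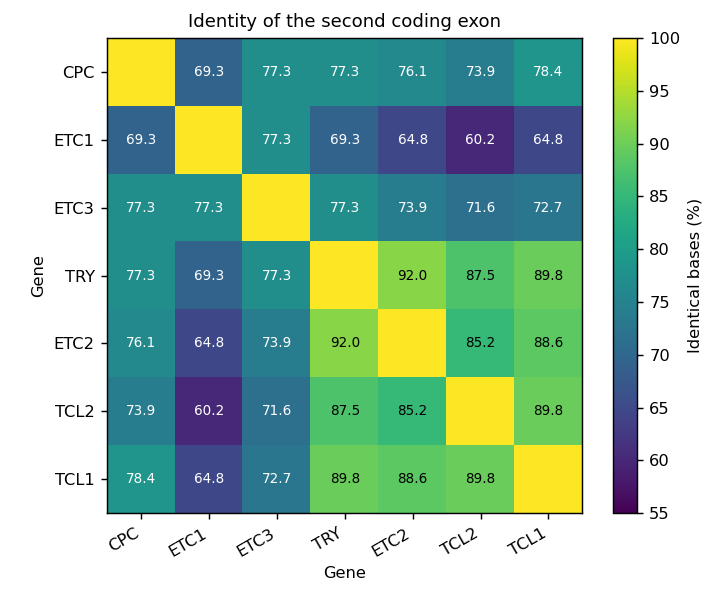
Percent of identical bases in the second coding exon (88 bp) for each pair of the 7 genes, shown by colour and number, with the diagonal left without numbers. TRY, ETC2, TCL2 and TCL1 form a block at 85.2% to 92.0%, and every other pair lies at or below 78.4%.

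The 7 genes fell into different states in these libraries. CPC alone carried H3K27ac and H3K4me3, together with H2A.Z. The tandem genes ETC2, TCL2 and TCL1 alone carried H3K27me3. ETC1 had a lone H2A.Z region, and TRY and ETC3 had no region of any target on their spans. No member had H3K4me1 or carried H3K27ac and H3K27me3 on the same span.

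A gene was called for a target when at least 100 bp of the span were covered, a limit below the smallest region of each library (179 bp for H3K27ac to 254 bp for H3K4me1). By that rule H3K4me1 was called on 0 of the 7 genes, where it was called on 52.8% of all protein-coding genes. H3K27ac was called on 1 of 7 against 67.1% of all genes, and H3K4me3 on 1 of 7 against 39.5%. H3K27me3 was called on 3 of 7 against 43.6%, so its frequency in the family was close to that of the genome. H2A.Z was called on 3 of 7 against 54.9%, and H3 on 1 of 7 against 43.9%. The members were 852 to 2740 bp long. Among the 15608 protein-coding genes in that range of length, H3K4me1 was called on 45.0%, H3K4me3 on 36.7%, H3K27ac on 66.4%, H3K27me3 on 45.3%, H2A.Z on 57.0% and H3 on 38.2%. The median of covered bases over the 7 spans was 0 for each target, where over all genes it was 254 bp for H3K4me1, 282 bp for H3K27ac, 183 bp for H2A.Z and 0 for the other targets.

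In the 2 kb before the start, H3K4me1 and H3K4me3 were each called on 0 of 7 genes, against 32.5% and 20.7% of all protein-coding genes. H3K27ac was called on 1 of 7 (46.4% of all genes), H3K27me3 on 3 of 7 (38.3%), H2A.Z on 3 of 7 (43.2%) and H3 on 1 of 7 (28.2%). The median over the 7 windows was 0 for each target, and over all genes it was 21 bp for H3K27ac and 0 for the others. CPC, TRY and ETC1 had no base under any target in this window, a state found in 13.0% of all genes and 12.1% of those of the members' lengths. Counting each region once, 25 regions touched a span or an upstream window of the family, and 8 of them were of the smallest size of their library.

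**Figure D2:**
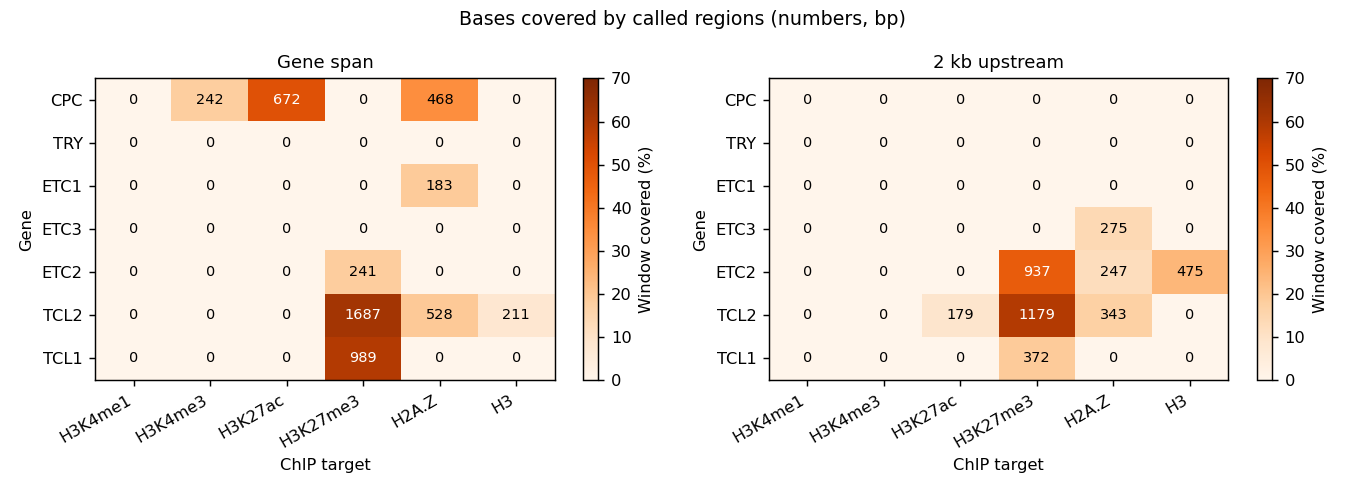
Percent of the gene span (left) and of the 2 kb upstream (right) covered by called regions, by colour, with the covered bases in bp as numbers, for each gene and ChIP target (1 library each). CPC is the member with H3K27ac on its span (672 bp), and H3K27me3 is found on ETC2, TCL2 and TCL1 alone (241, 1687 and 989 bp).

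CPC (AT2G46410; chromosome 2, 19049021 to 19050369, minus strand, 1349 bp) had 6 regions on its span. H3K27ac covered 672 bp (49.8% of the span) in 3 regions, H3K4me3 242 bp (17.9%) in 1 region and H2A.Z 468 bp (34.7%) in 2 regions. H3K4me1, H3K27me3 and H3 covered 0 bp. Cover by H3K27ac as high as on CPC, as a percent of the span, was found on 4.59% of all protein-coding genes and on 5.81% of those of the members' lengths. The 3 targets called on CPC occurred together, with at least 1 bp each, on 20.7% of all genes, and together without H3K4me1 and H3K27me3 on 2.98%. In the members' range of length these shares were 18.8% and 4.28%.

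The CPC regions lay behind the start of the gene. The H3K27ac regions reached 126 to 395 bp, 450 to 672 bp and 946 to 1124 bp after the annotated start, and the last of them was of the smallest size, 179 bp. The H2A.Z regions reached 124 to 408 bp and 438 to 620 bp, and the H3K4me3 region 354 to 595 bp. The first regions of H3K27ac and H2A.Z thus had their outer edges within a few bases of each other, and the second ones lay under the second intron. Of the bases under H3K27ac, 441 bp were also under H2A.Z and 188 bp under H3K4me3, and H3K4me3 shared 213 of its 242 bp with H2A.Z.

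The first H3K27ac region of CPC is printed from its start codon on, since it takes in the beginning of the protein-coding sequence and most of the exon compared above. Of the 270 bp of the region (chromosome 2, 19049974 to 19050243), the 212 bp from the start codon to the inner edge are shown, with the 139 coding bases in capitals and the first intron in lower case.
CPC, chr2:19049974-19050185, minus strand: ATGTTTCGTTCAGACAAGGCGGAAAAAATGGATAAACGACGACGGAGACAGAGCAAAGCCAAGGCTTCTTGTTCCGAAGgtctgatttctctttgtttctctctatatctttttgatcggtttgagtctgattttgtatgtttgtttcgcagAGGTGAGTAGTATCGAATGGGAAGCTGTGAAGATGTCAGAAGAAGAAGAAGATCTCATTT

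Outside the gene, CPC was set apart from other genes. The next gene before its start, AT2G46420, began 3100 bp away in the opposite direction, and the gene after its end, the WRKY transcription factor gene WRKY46, lay at 4065 bp. The 2 kb upstream held 0 bp of another gene and 0 bp of any region. The nearest H3K27me3 region, of the smallest size of 241 bp, was 1850 bp beyond the end of CPC. The nearest H3K4me1 region was 3314 bp before its start, in AT2G46420, and the nearest H3 region 2773 bp before it.

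TRY (AT5G53200; chromosome 5, 21582614 to 21584243, plus strand, 1630 bp) had no base under any target on its span or in its 2 kb upstream. A span without any region was found for 7.45% of all protein-coding genes and for 5.06% of those of the members' lengths. With the upstream window included, 2.90% of all genes, and 2.18% of those of the members' lengths, were without any region. The region nearest to the span of TRY was one of H3K27me3 at 2234 bp after its end. Before its start, just outside the 2 kb window, another H3K27me3 region lay between positions -2515 and -2275, and an H3K27ac region of the smallest size between positions -2664 and -2486. H2A.Z came no nearer than 3772 bp, H3K4me1 11178 bp, H3K4me3 11970 bp and H3 3500 bp.

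The H3K27me3 region after the end of TRY belonged to its neighbour SPEECHLESS (SPCH), the bHLH gene that starts the stomatal lineage, whose end lay 1975 bp beyond the end of TRY. SPCH had 2161 bp of H3K27me3, 71.2% of its span, with 468 bp of H2A.Z and 211 bp of H3. On the other side, 8284 bp away, the sugar transporter gene SWEET3 had 711 bp of H3K27me3. TRY thus lay between genes with H3K27me3 regions and carried none itself.

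ETC1 (AT1G01380; chromosome 1, 147043 to 148014, plus strand, 972 bp) had 183 bp of H2A.Z (18.8% of the span) and 0 bp of the other targets. The region (chromosome 1, 147469 to 147651) was of the smallest size of its library and reached 426 to 608 bp after the start. It covered 71 of the 88 bases of the second coding exon. H2A.Z as the lone target on a span was found for 1.97% of all protein-coding genes and for 1.98% of those of the members' lengths. The 2 kb upstream of ETC1 held no region, although 1437 bp of it (71.8%) lay inside HTR12, the gene of the centromeric histone H3, where 254 bp of H3K4me1, 669 bp of H3K27ac and 541 bp of H2A.Z lay farther upstream. The gene after ETC1, AT1G01390, ran towards it and overlapped its end by 2 bp, and carried H3K27ac on 287 bp, H3K4me1 on 254 bp and H3K4me3 on 189 bp. The nearest region of H3K27me3 was 3141 bp away.

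ETC3 (AT4G01060; chromosome 4, 460395 to 461246, plus strand, 852 bp) had no region on its span. Its 2 kb upstream held 1 H2A.Z region of 275 bp, which lay between positions -1352 and -1078 from the start and touched no other gene. The flanking genes carried marks that stopped short of ETC3. GT72B1, a glucosyltransferase gene that runs towards ETC3 and ends 266 bp after it, had 467 bp of H3K27ac, 550 bp of H3K4me3 and 549 bp of H2A.Z. Its nearest H2A.Z and H3K27ac regions were 359 and 470 bp from the end of ETC3. On the other side TROL, a gene for a thylakoid protein that ends 1884 bp before ETC3, had 902 bp of H3K4me1 and 336 bp of H3K27ac. The nearest H3K27me3 region was 5833 bp away.

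**Figure D3:**
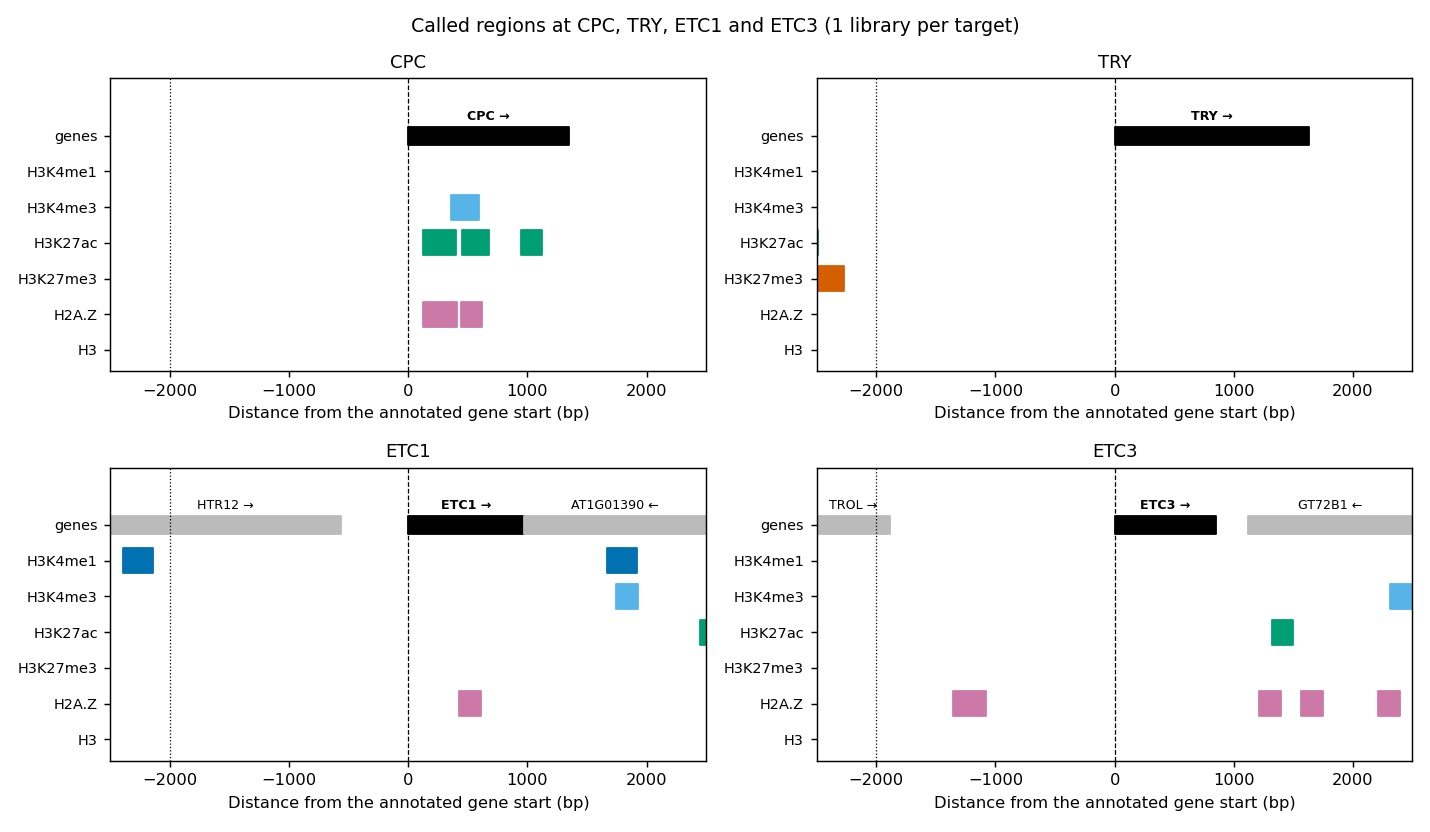
Called regions of the 6 targets around the annotated start of CPC, TRY, ETC1 and ETC3, with distance in bp along the direction of transcription. Black bars are the members and grey bars other genes, dashed lines mark the start and dotted lines 2000 bp before it. CPC holds 6 regions on its span, ETC1 holds 1, and TRY and ETC3 hold 0.

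ETC2 (AT2G30420, 12960847 to 12962162, 1316 bp), TCL2 (AT2G30424, 12962984 to 12965723, 2740 bp) and TCL1 (AT2G30432, 12968565 to 12970240, 1676 bp) are all on the minus strand of chromosome 2. In the direction of transcription TCL1 comes first, then TCL2, then ETC2. The stretch from one end of the cluster to the other spans 9394 bp, and H3K27me3 covered 4633 bp of it (49.3%) in 9 regions of 241 to 1464 bp. The last of these regions reached 68 bp past the start of TCL1. When chromosomes 1 to 5 were divided into 12681 windows of that length, the median window had 482 bp of H3K27me3 (5.13%), and 0.678% of windows had at least as much as the cluster. H3K4me1 and H3K4me3 covered 0 bp of the cluster, H3K27ac 179 bp (1.91%), H2A.Z 941 bp (10.0%) and H3 686 bp (7.30%). The median windows had 750 bp of H3K4me1, 189 bp of H3K4me3, 761 bp of H3K27ac, 529 bp of H2A.Z and 422 bp of H3.

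TCL1, which limits trichomes on inflorescence stems, had 989 bp of H3K27me3 (59.0% of the span) in 3 regions and 0 bp of the other targets. The regions reached from 68 bp before to 232 bp after the start, from 453 to 926 bp, and from 1394 bp to beyond the end of the gene. The first took in 53 coding and 180 untranslated bases, and the second lay almost wholly in intron sequence (452 of 474 bp). In its 2 kb upstream H3K27me3 covered 372 bp, and no other target had a region there. At least as much of the span was under H3K27me3 in 6.15% of all protein-coding genes and in 7.42% of those of the members' lengths.

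TCL2, a trichome inhibitor of the same kind, had 1687 bp of H3K27me3 (61.6% of the span), 528 bp of H2A.Z (19.3%) and 211 bp of H3 (7.70%). At least as much of the span was under H3K27me3 in 5.53% of all genes and in 6.65% of those of the members' lengths. The largest H3K27me3 region of the family, of 1464 bp, reached 1034 to 2497 bp after the start of TCL2, and a second of 804 bp reached from 581 bp before to 222 bp after it. The gene has 3 annotated transcripts, and the one with the longest coding sequence ends within the 1464 bp region. On that transcript of 1341 bp, H3K27me3 covered 530 bp (39.5%), H2A.Z 281 bp (21.0%) and H3 0 bp.

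H2A.Z on TCL2 lay in part beside H3K27me3 and in part under it. Its region of 281 bp, 230 to 510 bp after the start, covered 73 of the 88 bases of the second coding exon and began just beyond the H3K27me3 region around the start, which ended at 222 bp. Its region of 247 bp farther along the gene was wholly under H3K27me3, and 184 bp of it were also under H3. The 211 bp under H3 were wholly under H3K27me3. Both this H3 region and the H2A.Z region of 247 bp lay beyond the end of the transcript with the longest coding sequence. The bases shared between targets on TCL2 therefore depend on its longer annotated span.

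ETC2, which limits trichomes on leaves, had 241 bp of H3K27me3 (18.3% of the span) in 1 region of the smallest size, 138 to 378 bp after its start, and 0 bp of the other targets. At least as much of the span was under H3K27me3 in 24.3% of all protein-coding genes and in 29.7% of those of the members' lengths. Of the 2 kb upstream of ETC2, 1179 bp (59.0%) lay inside the full annotated span of TCL2. The 937 bp of H3K27me3, the 247 bp of H2A.Z and 211 of the 475 bp of H3 in that window lay on the end of that span. The TCL2 transcript with the longest coding sequence ends before this window, so by that transcript these bases lie between the genes. The 821 bp between the end of TCL2 and the start of ETC2 held 264 bp of H3 and 0 bp of the other targets, so the H3K27me3 of ETC2 stood apart from that of its neighbour by 1201 bp.

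The region of ETC2 is printed from the start codon on, because the call of H3K27me3 on this gene rested on it. It runs over 241 bp (chromosome 2, 12961784 to 12962024), of which the 132 bp from the start codon to the inner edge are shown, with the 85 bases of the first coding exon in capitals.
ETC2, chr2:12961784-12961915, minus strand: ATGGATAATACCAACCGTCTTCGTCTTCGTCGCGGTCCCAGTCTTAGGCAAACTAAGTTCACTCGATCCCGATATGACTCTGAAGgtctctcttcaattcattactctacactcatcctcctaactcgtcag

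The space between TCL1 and TCL2 lay under H3K27me3 regions to a larger share than the span of ETC2 (18.3%). Of its 2841 bp, 1716 bp (60.4%) were under H3K27me3, 413 bp under H2A.Z, 179 bp under H3K27ac and 211 bp under H3. It held the small gene AT2G30430 of 237 bp, which runs the other way and had 211 bp of H3 and 0 bp of H3K27me3. The H3K27ac region was of the smallest size and lay between positions -1850 and -1672 from the start of TCL2, and all of its 179 bp were also under H3K27me3. On the spans and in the upstream windows of the family, this was the one place where those marks shared bases. In all, the 2 kb upstream of TCL2 had 1179 bp of H3K27me3 (59.0%) and 343 bp of H2A.Z (17.1%).

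The genes on either side of the cluster had active marks. KIS, a gene for a tubulin-folding cofactor that ends 78 bp from the end of ETC2, had 767 bp of H3K27ac, 470 bp of H3K27me3 and 247 bp of H2A.Z. TPP, a gene for a thylakoidal processing peptidase that starts 2441 bp before TCL1 in the opposite direction, had 1000 bp of H3K4me3, 700 bp of H3K27ac, 450 bp of H3K4me1 and 700 bp of H3K27me3. H3K27me3 was thus present on both flanking genes as well, there together with H3K27ac.

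**Figure D4:**
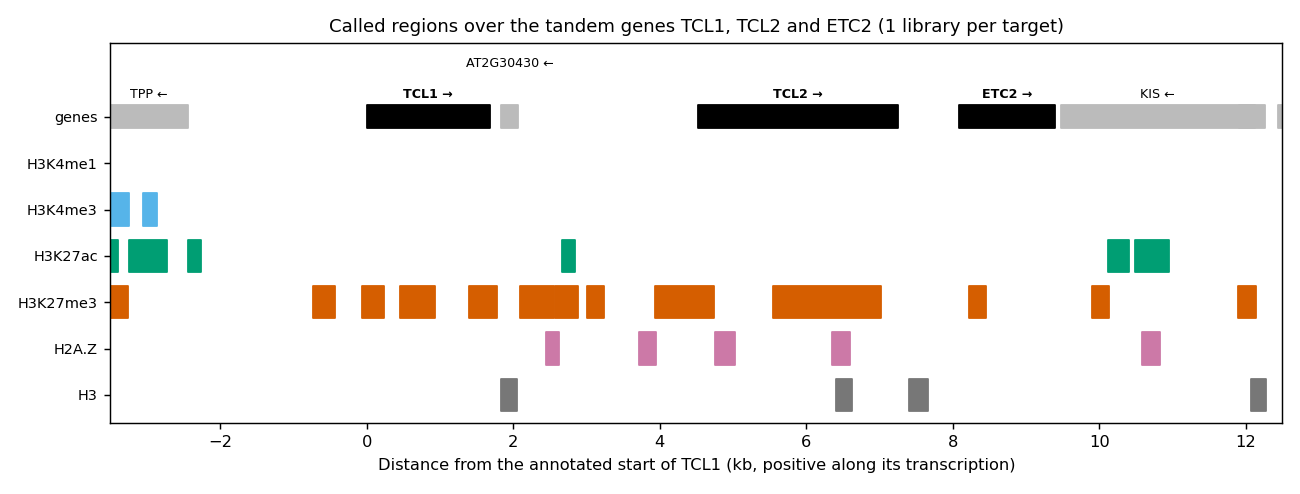
Called regions of the 6 targets over TCL1, TCL2, ETC2 and the flanking genes, with distance in kb from the annotated start of TCL1 along its transcription. Black bars are the members, grey bars other genes, and arrows give the direction of each named gene. TPP is cut off by the left edge and the gene OFP2, drawn without its name, by the right edge. AT2G08385, which overlaps the start of KIS, is also drawn without its name. Of the 9394 bp of the cluster, 4633 bp lie under H3K27me3 and 179 bp under H3K27ac, while H3K27ac covers 767 bp of KIS.

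The 250 bases before each annotated start were compared next. Of all 7 promoters, that of TCL2 was wholly under H3K27me3 (250 of 250 bp) and that of TCL1 in part (68 bp), while the other 5 had no base under any target. At least 1 base under H3K27me3 was found in 15.8% of all promoters of this length and all 250 in 3.27%, and 59.3% had no base under any target. The sequences of CPC, TRY and TCL2 are given as the promoters of the member with active marks, of the member without regions and of the member with the most bases under H3K27me3. Capitals mark E-boxes (CANNTG, the core bound by bHLH proteins) and MYB cores (CNGTTA or CNGTTG), searched on both strands.
CPC, chr2:19050370-19050619, minus strand: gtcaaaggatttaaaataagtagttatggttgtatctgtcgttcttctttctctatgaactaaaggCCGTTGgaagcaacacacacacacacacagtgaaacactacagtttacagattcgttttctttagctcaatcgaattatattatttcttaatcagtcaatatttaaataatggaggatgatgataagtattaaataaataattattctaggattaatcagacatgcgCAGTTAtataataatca
TRY, chr5:21582364-21582613, plus strand: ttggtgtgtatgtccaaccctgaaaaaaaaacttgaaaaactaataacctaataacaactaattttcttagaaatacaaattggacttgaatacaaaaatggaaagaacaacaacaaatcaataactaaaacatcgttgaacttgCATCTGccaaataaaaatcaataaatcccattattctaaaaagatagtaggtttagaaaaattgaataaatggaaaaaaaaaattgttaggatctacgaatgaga
TCL2, chr2:12965724-12965973, minus strand: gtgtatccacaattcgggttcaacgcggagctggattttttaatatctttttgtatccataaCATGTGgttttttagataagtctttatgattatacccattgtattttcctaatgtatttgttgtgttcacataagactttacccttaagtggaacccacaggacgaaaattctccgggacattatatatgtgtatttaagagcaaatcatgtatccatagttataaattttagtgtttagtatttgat

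The promoter of CPC had 2 MYB cores and 0 E-boxes, that of TRY 0 MYB cores and 1 E-box, and that of TCL2 likewise 0 and 1. Among all 7, an E-box was found in 6 promoters and a MYB core in 3 (CPC, ETC3 and ETC2). Of all 27443 promoters searched, 55.3% held an E-box and 40.7% a MYB core. The W-box core TTGAC of WRKY factors was found in 1 member, CPC, against 44.9% of all promoters. The telobox AAACCCTA and the repeat GAGAGA, known from Polycomb target genes, occurred in 0 of the 7, against 4.49% and 20.6%. No site in a member overlapped one of another motif. Matches of so few letters describe the sequence and are not binding sites.

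Other genes of the pathway were taken from a list of 13, which held 8 partners of the MYB complex, 2 genes it switches on and 3 genes that act upstream. Of the 13, H3K27ac was called on 9 (67.1% of all protein-coding genes), H3K4me1 on 6 (52.8%) and H3K4me3 on 5 (39.5%), all near the share over the genome. H3K27me3 was called on 9 (43.6%), H2A.Z on 9 (54.9%) and H3 on 10 (43.9%). Their medians of covered bases on the span were 223 bp for H3K27ac, 311 bp for H3K27me3, 218 bp for H2A.Z, 211 bp for H3 and 0 for H3K4me1 and H3K4me3. The inhibitors were 852 to 2740 bp long and these 13 genes 1463 to 4743 bp, and the part of gene length in the counts was not tested. H3K27ac and H3K27me3 were both called on 0 of the 7 inhibitors and on 6 of these 13 genes, against 28.1% of all protein-coding genes. H3K27ac without H3K27me3 was called on 1 of the 7 inhibitors and 3 of the 13, against 39.0% of all genes. H3K27me3 without H3K27ac was called on 3 of the 7 inhibitors and 3 of the 13, against 15.5% of all genes. These 3 inhibitors are the neighbouring tandem genes, and the call on ETC2 rested on 1 region of the smallest size. Neither was called on 3 of the 7 and 1 of the 13, against 17.3%.

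The R2R3 MYB gene WEREWOLF (WER), which works in root non-hair cells, resembled CPC in having H3K27ac (518 bp) and H3K4me3 (189 bp) without H3K27me3, and differed in having 0 bp of H2A.Z and 211 bp of H3. GLABRA1 (GL1), the R2R3 MYB gene of trichomes, had 838 bp of H3K27me3, with 549 bp of H2A.Z, 179 bp of H3K27ac and 138 bp of H3K4me3. TTG1 had the same targets as WER on its span, with 1017 bp of H3K27ac, 581 bp of H3K4me3 and 422 bp of H3. It had 0 bp of H3K27me3 and of H2A.Z there, and 365 bp of H3K27me3 in its 2 kb upstream. The likeness to CPC was thus not particular to WER. Among the bHLH genes, MYC1 had 1943 bp of H3K27me3 (62.4% of the span) and TT8, a regulator of seed coat pigment, 1443 bp, and neither had H3K27ac on the span. GL3 and EGL3, likewise bHLH partners of the complex, had fewer bases under H3K27me3, with 241 bp (5.74%) on GL3 and 311 bp (8.29%) on EGL3. GL3 carried 309 bp of H3K27ac besides, and EGL3 had 0 bp.

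Upstream of the inhibitors, SPL9, whose protein is known to bind the promoters of TCL1 and TRY, had 1151 bp of H3K27me3, 1266 bp of H2A.Z and 409 bp of H3K27ac. SCM, the receptor-like kinase gene of epidermal position signalling, had 746 bp of H3K27ac and 0 bp of H3K27me3. JKD, a zinc finger gene of the same signalling, carried H3K27me3 on 2456 bp and H3K27ac on 223 bp. MYBL2, a MYB gene with a lone repeat that inhibits anthocyanin synthesis and is not a member, had no region on its span and 301 bp of H3K27me3 in its 2 kb upstream. In this it was like TRY and ETC3 on the span and unlike them upstream.

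**Figure D5:**
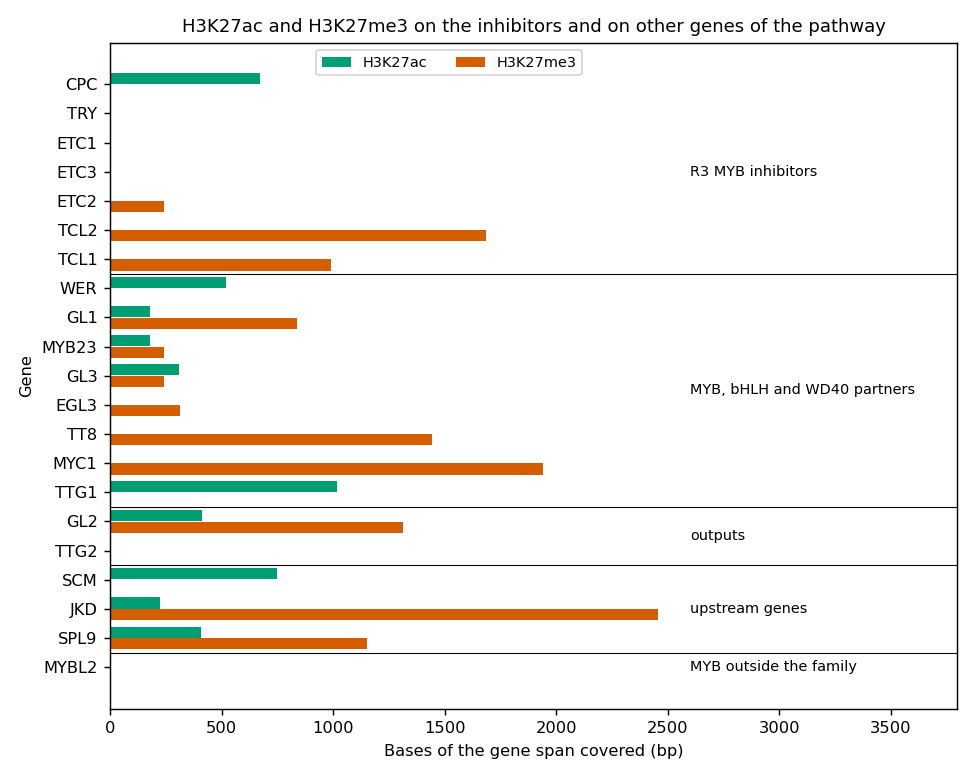
Bases of the gene span covered by H3K27ac and by H3K27me3 in bp for the 7 inhibitors (top) and, below the lines, for partners of the MYB complex, its outputs, upstream genes and MYBL2, from 1 library per target. No inhibitor has both bars, whereas GL1, MYB23, GL3, GL2, JKD and SPL9 do.

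The label of the cell type was set against marker genes of non-hair and hair cells. Of the non-hair genes WER, GL2, TTG2 and MYB23, 3 of 4 had H3K27ac and 2 of 4 H3K27me3, against 67.1% and 43.6% of all protein-coding genes. Of the hair genes RHD6, RSL4, COBL9 and EXPA7, 2 of 4 had H3K27ac and 4 of 4 H3K27me3, with 482 to 1608 bp. Apart from H3K27me3 on all 4 hair genes, these counts were near the shares over all genes, and they are too few to serve as a check of the cell type. TTG2 had neither mark and GL2 had both. Called regions do not measure transcripts, so the presence of other cells among the nuclei could not be read from them.

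The genes most like a member were those with the smallest sum, over the 6 targets, of differences in the percent of the span covered, among protein-coding genes within 1.25 times its length. For CPC the 3 closest of 5049 genes were AT4G38490, AT1G08390 and PDE334, with summed differences of 7.05, 7.92 and 8.68 percentage points. PDE334 had 45.3% of its span under H3K27ac, 33.8% under H2A.Z and 21.2% under H3K4me3. For TCL2 the 3 closest of 7709 genes were the auxin synthesis gene YUC4 (6.95 points), the terpene synthase gene TPS21 (7.14) and the transcription factor gene TCP1 (7.29). These 3 had 59.6% to 64.1% of their spans under H3K27me3, with H2A.Z and H3 besides and no other target. The other members had fewer than 2 targets called and were not compared in this way.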

How the data were processed

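ChIP-seq regions of 6 targets in root non-hair nuclei were used, from 1 library each. The authors deposited, per target, the chromosome, start and end of called regions. No score or count is in these files, so sequencing depth is unknown and no interval that needs it is given. The build was TAIR10 and the tools were HOMER, deepTools 2.0, Bowtie2 and SAMtools 0.1.19, per the submitters' processing notes. How the caller was set, and against which control, is not given in the sources used here, and per the file names the regions had been sorted and merged. A deeper library can give more and longer regions, which changes every cover reported.

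Regions on chromosomes 1 to 5 were kept (7 on other sequences left out) and set against the RefSeq annotation of TAIR10.1. All region ends lay within its chromosome lengths. The libraries held from 14717 regions (H3K4me3) to 36146 (H3K27ac), and 39.2% (H3K4me1) to 63.4% (H3) of a library had its smallest size. Covered bases, shared bases and calls were computed in Python 3.11.15 with NumPy 2.4.6, with interval arithmetic tested on simulated data, and figures were drawn with Matplotlib 3.10.9. The upstream window of 2 kb was not cut at other genes. The limit of 100 bp was used in place of 200 bp because the smallest regions lie on either side of 200 bp.

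The genes, lists and limits were chosen with earlier results of these data known. Genes named in the text are the 7 members, the fixed pathway and marker genes, the neighbours of the members and the 3 genes most like a member.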

Additional observations from a re-analysis of the deposited data

How the results depend on the processing

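No paired analysis was possible because each target had 1 library. Alternatives were a limit of 1 or 200 bp, leaving out regions of the smallest size, keeping regions of at least 500 bp, joining regions less than 500 bp apart, coding spans, upstream windows of 1000 bp or ended at the nearest gene, and, chosen after seeing the data, the span of the transcript with the longest coding sequence. Counts of called members on the span and upstream were compared, as were counts of member and target pairs sharing at least 1 bp (set against 50 bp). Of the alternative values, 72 were within 1.5 times the reported count and 14 were not. The 72 include counts of 0 that stayed 0, which stricter settings cannot raise, and counts that fell from 3 to 2. The number of member and target pairs that shared bases was 6 on spans and 5 upstream under either limit. The smallest overlap was 108 bp, so the limit of 50 bp could not change these counts, which are among the 72. The span of the transcript with the longest coding sequence was not applied to them. The pairs upstream of ETC2 shared the same bases as those on the span of TCL2 (247, 211 and 184 bp) and were counted in both.

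With regions of at least 500 bp alone, H3K4me3, H3K27ac, H2A.Z and H3 were called on 0 spans and H3K27me3 on 1 span, that of TCL2. Upstream, H3K27ac, H2A.Z and H3 were then called on 0 members. The call of H3 on a span, TCL2, became 0 without regions of the smallest size and 0 on the transcript with the longest coding sequence. The call of H3K27ac upstream, TCL2, became 0 with 200 bp as the limit, 0 without regions of the smallest size and 0 in 1000 bp, since 1 region of 179 bp made it. H2A.Z upstream was called on 1 member in 1000 bp, since the regions before ETC3 and ETC2 lie farther out. By bases, leaving out regions of the smallest size left 0 bp on ETC1 (H2A.Z) and 0 bp on ETC2 (H3K27me3), and 493 bp of H3K27ac and 285 bp of H2A.Z on CPC. Without bases also under H3, TCL2 kept 1476 bp of H3K27me3 and 344 bp of H2A.Z. With 1 library per target and no known depth, a gene without regions cannot be told apart from one whose regions were missed.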
